A study of Mus musculus with 2 samples.

Results

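Transcript levels of 10 heat shock and chaperone genes were examined in mouse embryonic stem cells (mESCs) with and without depletion of the deubiquitinase USP21. The genes were Hspa8, Hspa1a, Hspa1b, Dnajb1, Hsph1, Hsp90aa1, Hsp90ab1, Hspb1, Hspd1 and Hspe1, taken by symbol from the 23889 symbols listed for both libraries, and all 10 were present. They were chosen by name, with earlier results of these data known. Because Hspa1a and Hspa1b are near-identical, their sum is also given.

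The RNA sequencing covered 2 libraries of E14 cells, an mESC line that the labels derive from a 19/Ola mouse, grown without feeders on gelatin in serum and LIF, the cytokine that maintains mESC self-renewal. One library came from cells transfected with a control shRNA (genotype label Normal) and the other from cells transfected with an USP21 shRNA (genotype label USP21 knockdown), both harvested after 3 days. Which USP21 shRNA was used is not stated in the labels. The comparison addresses how the transcriptome differs after USP21 knockdown. With 1 library per group no replicate error can be estimated, so every difference below describes these 2 libraries, no test was made, and the order of neighbouring values has no error attached.

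Chaperones bind unfolded or partly folded proteins and help them to fold, to assemble or to be handed over for degradation. Hsp70 proteins work in ATP-driven cycles that J-domain proteins start and nucleotide exchange factors of the Hsp110 type end, and Hsp90 takes over selected clients such as kinases and receptors. Some of these genes are expressed at all times (Hspa8, Hsp90ab1), whereas others are known for induction by proteotoxic stress through heat shock factor 1 (Hspa1a, Hspa1b, Dnajb1, Hspb1). The factor binds heat shock elements, inverted repeats of the unit GAA, in their promoters. Pluripotent cells are known for high constitutive chaperone expression.

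The heat shock element is the sequence through which the inducible members respond, so the promoter windows that hold it are shown first. Windows from 250 bases before to 50 bases after the start site (300 bases, RefSeq, build GRCm38.p6) were matched by symbol for Hspa1a, Hspa1b, Hspb1, Dnajb1, Hsph1, Hspd1 and Hspe1, 7 of the 10 members. Hspa8, Hsp90aa1 and Hsp90ab1 were not analysed here for promoter sequence. The element was searched as GAANNTTC and as TTCNNGAA, each of which reads the same on both strands and can overlap the other by 1 unit. Capitals mark the matches in the sequences. Only exact matches were sought, so imperfect elements are neither marked nor counted. The first 3 sequences are the 250 bases before the start site of Hspa1a (chr17:34972157-34972406, minus strand), Hspa1b (chr17:34959239-34959488, minus strand) and Hspb1 (chr5:135887669-135887918, plus strand). The other two are 30-base stretches around the matches upstream of Hspe1 (chr1:55088053-55088082, plus strand) and Hsph1 (chr5:149636351-149636380, minus strand).
Hspa1a: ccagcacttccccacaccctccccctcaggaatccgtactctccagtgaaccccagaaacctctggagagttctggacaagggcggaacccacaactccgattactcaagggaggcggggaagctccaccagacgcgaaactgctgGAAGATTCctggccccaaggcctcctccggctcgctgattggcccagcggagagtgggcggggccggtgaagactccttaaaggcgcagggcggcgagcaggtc
Hspa1b: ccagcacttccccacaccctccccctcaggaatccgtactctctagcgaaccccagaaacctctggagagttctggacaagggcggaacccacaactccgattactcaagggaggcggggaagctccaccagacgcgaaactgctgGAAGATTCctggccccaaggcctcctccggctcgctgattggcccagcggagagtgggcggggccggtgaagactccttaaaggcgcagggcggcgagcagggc
Hspb1: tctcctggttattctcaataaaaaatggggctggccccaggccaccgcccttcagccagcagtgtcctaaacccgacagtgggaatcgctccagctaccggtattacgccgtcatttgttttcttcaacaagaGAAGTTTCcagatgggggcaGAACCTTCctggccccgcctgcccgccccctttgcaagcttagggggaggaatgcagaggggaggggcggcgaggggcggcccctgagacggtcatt
Hspe1: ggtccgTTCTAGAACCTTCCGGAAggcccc
Hsph1: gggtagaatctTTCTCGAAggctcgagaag

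At least 1 match lay in the windows of 6 of these 7 genes, all but Dnajb1. The 7 genes had 10 windows, and a gene was counted if any of its windows held a match. Of all 32851 windows, taken singly, 15.1% held either form (7.86% GAANNTTC and 8.52% TTCNNGAA). Hspa1a and Hspa1b carried the same match at the same place, beginning 104 bases before the start site. Over the 250 upstream bases both promoters were 98.8% identical. They differed at 3 positions, C44T, T47C and T249G (the Hspa1a base, the position counted from 1 at the 5′ end, then the Hspa1b base), and none of these lay in the capitals. Hspb1 held 2 matches, beginning 117 and 97 bases before its start.

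Hspd1 and Hspe1 are divergent neighbours on chromosome 1, with start sites 216 bases apart on opposite strands, so the match in their windows is 1 shared site counted for both genes. It began 89 bases before the Hspe1 start and 144 bases before the Hspd1 start. A second Hspd1 start site lies 95 bases on the other side of the Hspe1 start, and for transcripts from it the site lies inside the gene. The shared Hspd1 and Hspe1 site itself held 2 overlapping runs of 3 units, and the Hsph1 windows held 1 such run. Runs of 3 units were found in 0.603% of all windows, and that of Hsph1 lay after both of its start sites. The upstream Hsph1 match printed above began 54 bases before 1 of these start sites and 33 bases before the other. The CCAAT box was present in 5 of the 7 genes, counted over any window of a gene, against 37.4% of all windows. For Hspd1 it lay only in the window of the second start site. TATAAA was present in 0 of 7 genes against 13.6% of all windows. These are matches of letters, and binding to them was not measured.

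Levels are given in FPKM (fragments scaled to transcript length and to the mapped fragments of the library). Log2 ratios are log2((FPKM + 0.1) with USP21 shRNA over (FPKM + 0.1) with control shRNA), so a negative value is lower with USP21 shRNA. The 11927 symbols that reached an FPKM of 1 in either library are called genes past the filter, and the 973 that reached 100 are called abundant genes. Usp21, the targeted gene, was at 26.2 FPKM with control shRNA and 3.49 FPKM with USP21 shRNA, a log2 ratio of −2.87. The 10 mESC markers listed, Pou5f1, Nanog, Sox2, Zfp42, Esrrb, Klf4, Dppa5a, Tdgf1, Utf1 and Fgf4, were between 54.8 and 1849 FPKM, and their summed level was 4618 and 3596 FPKM (control shRNA first). Nanog itself was at 467.1 and 257.7 FPKM. Of 8 fibroblast markers 2 passed the filter (sum over all 8 markers 19.9 and 7.19 FPKM, mostly Thy1 at 17.3 and 5.29), Lum was listed at 0 in both libraries, and Col3a1 was below 0.01 FPKM in both. All 7 primitive endoderm markers passed (sum 50.2 and 44.0 FPKM) and 4 of 7 trophectoderm markers did (sum over all 7 markers 23.5 and 23.7 FPKM), with Elf5 listed at 0 with USP21 shRNA. The part of differentiated cells in the values below was not tested, and a change in RNA per cell cannot be told apart from a change in the cells present.

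The files hold no counts, so sequencing depth is unknown. Among 1439 symbols that were low in both libraries, the most frequent log2 ratio, here taken without the pseudocount, was 0.31. That is the step that equal whole fragments would give if the control library were 1.24 times as deep. The summed FPKM was 613617 with control shRNA and 543206 with USP21 shRNA. Rescaling each library to the same sum (TPM) therefore adds about 0.18 to the log2 ratio of genes well above the pseudocount (genes near it shift by other amounts), and TPM values are given beside the members and lists whose direction they change.

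The 10 genes spanned more than 3 orders of magnitude, from Hspa1a at the bottom to Hspa8 at the top. Together they held 8596 FPKM with control shRNA and 8000 FPKM with USP21 shRNA, 1.40% and 1.47% of the summed FPKM of each library. With control shRNA the order of levels was Hspa8, Hsp90ab1, Hsp90aa1, Hspe1, Hspd1, Hspb1, Hsph1, Dnajb1, Hspa1b and Hspa1a. The order with USP21 shRNA was the same except that Hspd1 stood above Hspe1. Log2 ratios ranged from −0.63 (Hspa1b) to 0.29 (Hsph1), with 8 genes below 0 and 2 above on the FPKM scale and 2 below and 8 above after rescaling to TPM. Of all genes past the filter 49.6% were below 0 on the FPKM scale and 29.3% in TPM. The shares of the abundant genes were 76.5% and 52.1%.

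**Figure D1:**
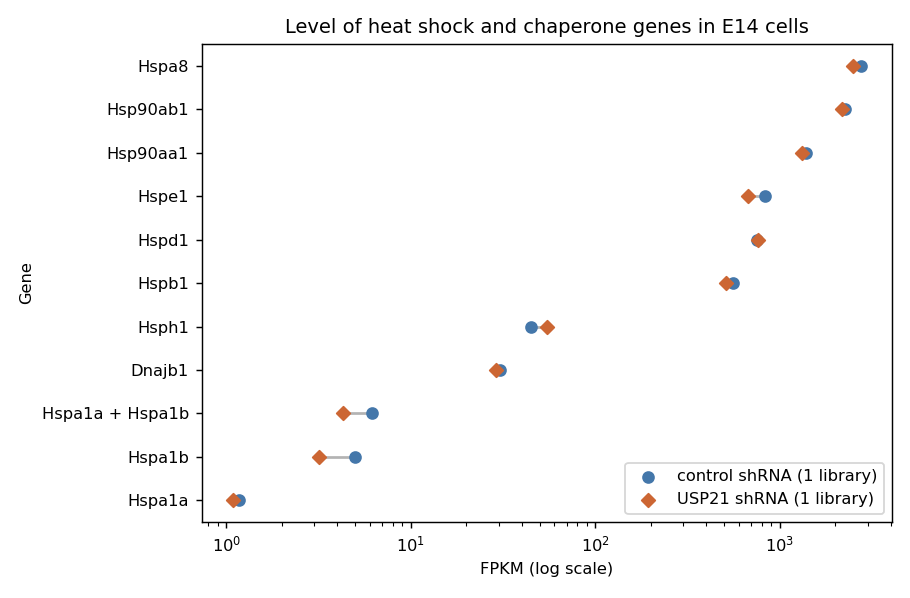
Level of each gene in FPKM (log axis) in the control shRNA library (circles) and the USP21 shRNA library (diamonds), 1 library each, with the sum of Hspa1a and Hspa1b as its own line. Hspa8 lies highest at 2753 and 2477 FPKM, Hspa1a lowest at 1.18 and 1.09 FPKM, and the widest gap is that of Hspa1b at 4.999 and 3.20 FPKM.

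Hspa8, the constitutive cytosolic Hsp70 (Hsc70), was the most abundant of the 10 genes and among the most abundant transcripts of the cell. Its level was 2753 FPKM with control shRNA and 2477 FPKM with USP21 shRNA, rank 23 and rank 17 of all 23889 symbols. The control library was 1.11-fold higher, a log2 ratio of −0.15 on the FPKM scale and 0.02 after rescaling to TPM. Of the abundant genes 55.6% had a lower ratio, which places Hspa8 near their middle.

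Hspa1a and Hspa1b encode the stress-inducible Hsp70 in neighbouring genes on chromosome 17. Hspa1b was at 4.999 FPKM with control shRNA and 3.20 FPKM with USP21 shRNA, 1.56-fold lower (log2 ratio −0.63). Hspa1a was at 1.18 and 1.09 FPKM, just inside the filter, with a log2 ratio of −0.11 on the FPKM scale and 0.06 after rescaling to TPM. The sum of both genes was 6.18 FPKM with control shRNA and 4.28 FPKM with USP21 shRNA, 1.44-fold lower (log2 ratio −0.52), and 7.99% of the genes past the filter had a lower ratio than the sum.

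How reads were divided between Hspa1a and Hspa1b is not known. In GENCODE transcripts, 63.8% of the 31-base words of Hspa1a also occurred in Hspa1b, and 67.6% of those of Hspa1b in Hspa1a. Hspa1b made up 80.9% of the sum with control shRNA and 74.6% with USP21 shRNA, and these shares are uncertain for that reason. The summed FPKM depends on the division only through the transcript lengths, 2967 bases for Hspa1a and 2803 for Hspa1b in GENCODE. The sum is also uncertain to the extent that shared reads were dropped. Hspa1l also held 12.1% of the Hspa1a words and 11.1% of the Hspa1b words. Next to the constitutive gene the inducible pair was scarce, with Hspa8 at 445.9 times the summed FPKM of the pair with control shRNA and 578.5 times with USP21 shRNA.

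Dnajb1, the J-domain protein (Hsp40) that delivers clients to cytosolic Hsp70, was at 30.4 FPKM with control shRNA and 28.8 FPKM with USP21 shRNA. Its log2 ratio was −0.08 on the FPKM scale and 0.10 after rescaling to TPM. Hsph1, the Hsp110 protein that acts as a nucleotide exchange factor of Hsp70 and holds aggregating proteins, was at 44.5 and 54.5 FPKM. It was 1.22-fold higher with USP21 shRNA (log2 ratio 0.29), the highest ratio of the 10 genes, and 78.9% of the genes past the filter had a lower one. Hspa8 exceeded Dnajb1 by 90.5 and 85.9 times in FPKM, and Hsph1 by 61.8 and 45.5 times. Dnajb1 and Hsph1 had almost no sequence in common with other genes (0.441% and 0.0% of their 31-base words), so nearly all reads of these genes could be assigned to them.

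Both cytosolic Hsp90 genes were very abundant. Hsp90ab1, the constitutive Hsp90β, was at 2240 FPKM with control shRNA and 2184 FPKM with USP21 shRNA. Hsp90aa1, the Hsp90α gene that stress can induce, was at 1385 and 1315 FPKM. Their log2 ratios were −0.04 and −0.08 on the FPKM scale and 0.14 and 0.10 after rescaling to TPM. The Hsp90ab1 level was 1.62 times that of Hsp90aa1 with control shRNA and 1.66 times with USP21 shRNA.

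Hspb1, the small heat shock protein Hsp25 that holds unfolded proteins without ATP and binds the actin cytoskeleton, was at 555.7 FPKM with control shRNA and 510.7 FPKM with USP21 shRNA. This placed it at rank 154 and rank 144 of all symbols, far above the other small heat shock protein genes, of which Cryab was the highest at 14.8 and 12.8 FPKM. Its log2 ratio was −0.12 on the FPKM scale, 0.05 after rescaling to TPM and 0.06 after correction for transcript length and GC content.

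Hspd1 and Hspe1 encode the mitochondrial chaperonin Hsp60 and its lid Hsp10, which share the divergent promoter shown above. Hspd1 was at 749.9 FPKM with control shRNA and 756.4 FPKM with USP21 shRNA, a log2 ratio of 0.01. Hspe1 was at 830.8 and 669.2 FPKM, 1.24-fold lower with USP21 shRNA (log2 ratio −0.31), and 31.4% of the abundant genes had a lower ratio. The ratio of Hspd1 to Hspe1 in FPKM was 0.903 with control shRNA and 1.13 with USP21 shRNA, so Hspe1 was the higher of the partners in the control library and Hspd1 in the other. Hspe1 has the shortest transcript of the 10 genes at 774 bases, and after correction for length and GC content its log2 ratio was −0.09 and that of Hspd1 was 0.06.

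One of the 10 genes, Hspa1b, was at least 1.5-fold lower with USP21 shRNA, beside 6.46% of the genes past the filter. The count was 0 with a pseudocount of 1, in TPM, and with Hspa1a and Hspa1b taken as 1 gene. None was at least 1.5-fold higher, beside 7.77%. Of the 6 members among the abundant genes, 0 were that much lower and 0 that much higher, beside 4.83% and 2.26% of the abundant genes. At 2-fold the members' count was 0 in both directions, beside 2.03% lower and 2.3% higher. The count of 1 for Hspa1b is near what the background share gives for 10 genes.

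The median log2 ratio of the 10 genes was −0.09 on the FPKM scale and 0.08 in TPM, with −0.10 once FPKM ratios were centred on the median of all genes. All genes past the filter had a median of 0.0031, with quartiles of −0.22 and 0.24, and 49.6% of them were below 0. Abundant genes stood lower, with a median of −0.19, quartiles of −0.34 and −0.011, and 76.5% below 0. In TPM the median was 0.178 for all genes past the filter and −0.0115 for the abundant genes. The members' median lay between those of these groups on both scales. Of the 6 abundant members, Hspa8, Hspb1, Hsp90aa1, Hsp90ab1 and Hspd1 lay above the median of the abundant genes and Hspe1 below it. The plot of ratio against level shows the downward shift of abundant genes in which these 6 members sit.

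**Figure D2:**
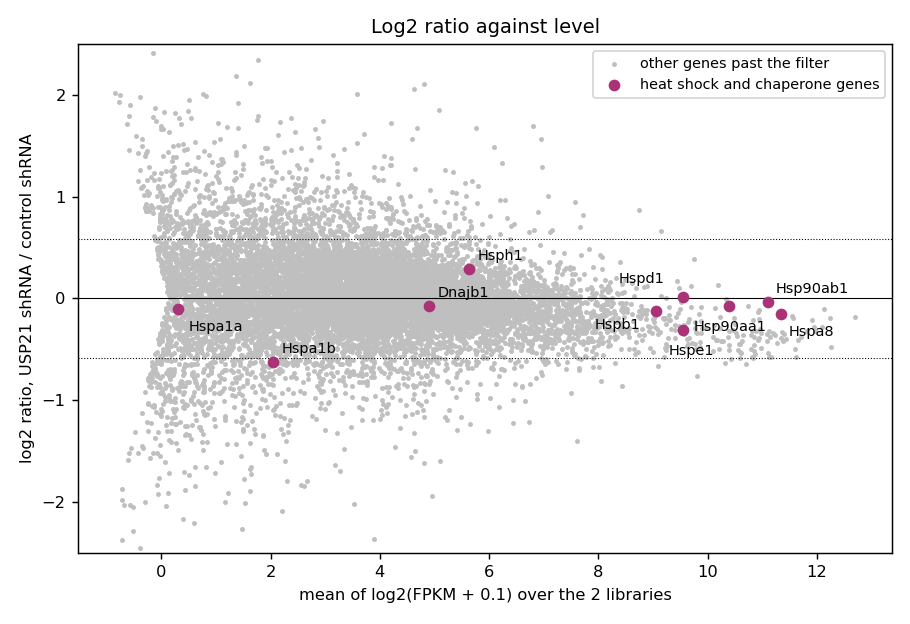
Log2 ratio (USP21 shRNA over control shRNA) against mean log2(FPKM + 0.1) of the 2 libraries for genes past the filter (grey) and the 10 heat shock and chaperone genes (labelled), with dotted lines at 1.5-fold, and 21 grey genes beyond a log2 ratio of ±2.5 not drawn. Hspa1b alone among the labelled genes lies past a dotted line, at −0.63, and the 6 labelled genes at the right sit in a cloud whose median is −0.19.

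Log2 ratios also followed a trend with transcript length across the genes past the filter. Over 11378 genes past the filter with a GENCODE transcript (95.4%), the log2 ratio had a Spearman rho of 0.318 with transcript length and −0.017 with GC content, across genes that are not independent replicates and come from the same 2 libraries. The median was −0.24 for the 795 genes with transcripts of up to 1000 bases, and −0.32 for the 232 abundant ones. It was −0.031 for transcripts of 2000 to 3000 bases and 0.024 for those of 3000 to 4000 bases. Hspe1 (774 bases, −0.31) lay close to the abundant genes of its length, and Hspb1 (903 bases, −0.12) above them. Among the 10 members the rho of log2 ratio with length was 0.54 and with control FPKM 0.10, given as a description. After correction for length and GC content 7 members were below 0 and 3 above, with a median of −0.07. The corrected median was 0.0038 for all genes past the filter and −0.088 for the abundant genes. The cause of the trend was not tested.

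**Figure D3:**
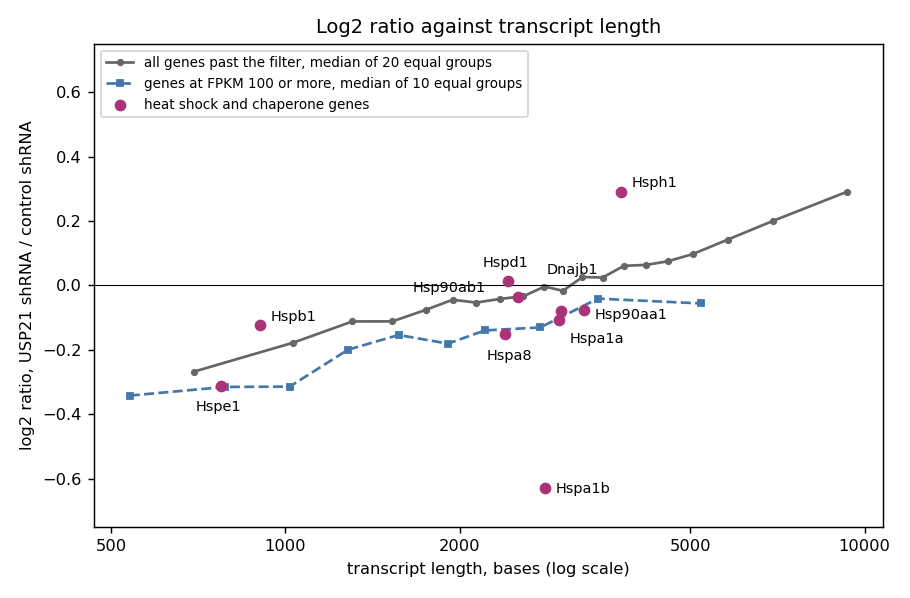
Log2 ratio (USP21 shRNA over control shRNA) against transcript length in bases (log axis) for the 10 genes (labelled points), with the medians of length groups for all genes past the filter (solid line) and abundant genes (dashed line). Hspe1 at 774 bases falls on the dashed line at −0.31, while Hspa1b at −0.63 lies below and Hsph1 at 0.29 above both lines.

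The 6 abundant members share sequence with processed copies elsewhere in the genome. The share of 31-base words found in another GENCODE gene was 77.2% for Hspa8, 62.9% for Hsp90aa1, 61.7% for Hspb1, 55.8% for Hspd1, 48.1% for Hspe1 and 16.6% for Hsp90ab1. The leading partners were copies outside the deposited tables, such as Gm15459 for Hspa8 (74.3%) and Hspd1-ps3 for Hspd1 (51.8%). The levels of these members are uncertain to the extent that such reads were dropped or divided, which is not given in the sources used here.

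The wider chaperone network was described by 104 further genes in 10 lists, of which 103 were in the files and 94 passed the filter. On the FPKM scale 69 of the 94 (73.4%) were below 0, beside 49.6% of all genes past the filter and 76.5% of the abundant ones. The FPKM counts of single lists below are to be read beside these shares. The median of the 94 was −0.11, and 8 of the 10 lists had a median below 0. After rescaling to TPM 32 (34%) were below 0, beside 29.3% of all genes past the filter and 52.1% of the abundant ones, and the median was 0.07. The TPM median was 0.178 for all genes past the filter and −0.0115 for the abundant ones. TPM medians of single lists below are to be read beside these. At least 1.5-fold lower was 1 gene (1.06%) and at least 1.5-fold higher were 4 (4.26%), beside 6.46% and 7.77% of all genes past the filter.

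The Hsp70 system outside the 10 genes was mixed. Of 6 other Hsp70 and Hsp110 family genes past the filter (of 8), 4 were below 0 on the FPKM scale and 1 in TPM, with medians of −0.08 and 0.10, and with no filter the FPKM median was 0.04. Hspa13 (Stch), a microsome-associated Hsp70 relative, had the highest ratio, at 8.92 and 18.5 FPKM (2.07-fold higher with USP21 shRNA), and Hspa2, the testis-enriched Hsp70, the lowest ratio, at 4.15 and 3.17 FPKM. The 15 J-domain co-chaperones were above 0 in 9 cases, with a median of 0.17. Their extremes in ratio were Dnajb2, at 7.24 and 10.96 FPKM (log2 ratio 0.59), and Dnaja4, at 2.58 and 2.00 FPKM (log2 ratio −0.35). Of the 9 nucleotide exchange and adaptor factors, which include the BAG proteins, 8 were below 0 on the FPKM scale and 4 in TPM, with medians of −0.11 and 0.07. Their ratios ran from St13 (Hip), which stabilises the ADP-bound state of Hsp70, at 199.5 and 151.1 FPKM, to Stub1 (CHIP), the ubiquitin ligase that marks chaperone clients, at 54.3 and 59.6 FPKM.

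Of the 15 Hsp90 co-chaperones 13 were below 0 on the FPKM scale and 7 in TPM, with medians of −0.12 and 0.06. The lowest ratio was that of Ppid, the cyclophilin partner of Hsp90, at 164.9 and 121.5 FPKM, and the highest that of Unc45a, a myosin chaperone, at 14.7 and 16.2 FPKM. The small heat shock proteins other than Hspb1 were scarce, with 5 of 9 past the filter. Of these 3 were below 0 on the FPKM scale and 2 in TPM, with medians of −0.15 and 0.02. Hspb8, the partner of Bag3 in chaperone-assisted autophagy, had the highest ratio of them, at 5.53 and 9.53 FPKM (1.73-fold higher with USP21 shRNA), and Hspb2 the lowest ratio, at 8.11 and 6.97 FPKM.

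All 8 subunits of the TRiC chaperonin past the filter, which folds actin and tubulin, were below 0 on the FPKM scale and 3 of 8 in TPM, with medians of −0.15 and 0.02. All 8 were abundant genes, and 76.5% of all abundant genes were below 0 on the FPKM scale. The subunit ratios ran from Tcp1 at 256.7 and 196.4 FPKM (log2 ratio −0.39) to Cct3 at 350.8 and 340.1 FPKM (log2 ratio −0.04, 0.13 in TPM and 0.02 after length and GC correction). Prefoldin, which passes clients to TRiC, had 4 of 5 subunits below 0 on the FPKM scale, 1 in TPM and 1 after length and GC correction, with medians of −0.11, 0.06 and 0.06. Its extremes in ratio were Pfdn5 at 123.7 and 99.4 FPKM and Pfdn2 at 185.6 and 192.9 FPKM.

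Of 11 other mitochondrial chaperones and proteases, 8 were below 0 on the FPKM scale and 4 in TPM, with medians of −0.07 and 0.11. Dnajc19, a J-domain protein of the mitochondrial import motor, had the lowest ratio, at 86.6 and 60.7 FPKM (log2 ratio −0.51), and Grpel2 the highest, at 8.50 and 9.86 FPKM. In the endoplasmic reticulum 14 of 16 chaperones were below 0 on the FPKM scale and 7 in TPM, with medians of −0.16 and 0.01. The lowest ratio was that of Dnajc3 (p58IPK), an inhibitor of eIF2α kinases and co-chaperone of the reticulum, at 7.21 and 3.74 FPKM (log2 ratio −0.93), and the highest that of Dnajb11 at 50.8 and 54.2 FPKM.

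The heat shock factors themselves were expressed at modest levels. Hsf1, the main factor of the heat shock response, was at 17.7 FPKM with control shRNA and 22.9 FPKM with USP21 shRNA (log2 ratio 0.36). Hsf2 was at 14.9 and 18.2 FPKM (log2 ratio 0.29), and Hsbp1, which binds and restrains Hsf1, at 65.9 and 68.7 FPKM (log2 ratio 0.06). Hsf2bp had the lowest ratio of the 4 that passed the filter (of 6), at 9.67 and 7.12 FPKM. The list's median was 0.17, and −0.03 with no filter, when Hsf4 and Hsf5, both under 1 FPKM, enter.

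The lists of integrated stress response genes, proteasome subunits and immediate early genes gave a frame for these values, and no test between lists was made. Of 14 integrated stress response genes past the filter (of 15), 8 were above 0, with a median of 0.25. Chac1, a glutathione-degrading enzyme induced through ATF4, had the highest ratio, at 6.27 and 13.2 FPKM, and Phgdh, of serine synthesis, the lowest, at 126.5 and 94.9 FPKM. Of 31 proteasome subunits 27 were below 0 on the FPKM scale and 17 in TPM, with medians of −0.22 and −0.04 and ratios running from Psmd13 at 154.3 and 112.8 FPKM to Psmd7 at 105.6 and 118.6 FPKM. Abundant genes made up 29 of the 31, and 76.5% of all abundant genes were below 0 on the FPKM scale. Of 12 immediate early genes past the filter (of 14), 10 were above 0, with a median of 0.34, with the highest ratio for Fosb at 4.07 and 10.6 FPKM and the lowest for Ier3 at 3.68 and 3.06 FPKM.

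**Figure D4:**
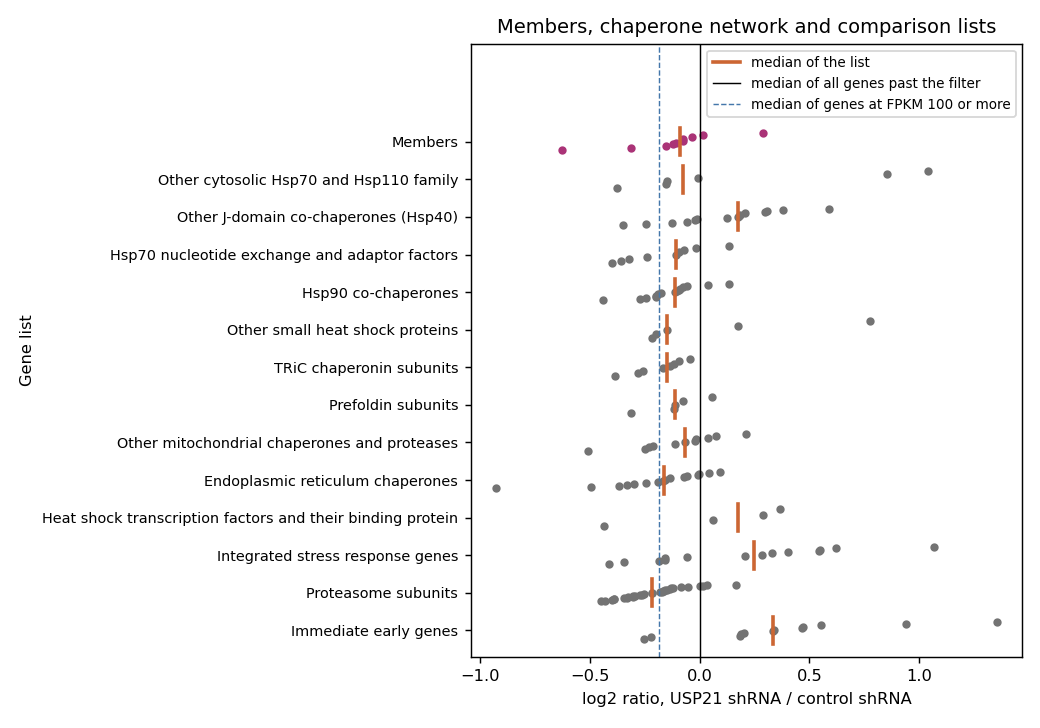
Log2 ratio (USP21 shRNA over control shRNA, FPKM scale) of every gene past the filter in each list (points), with the list median (thick bar), the median of all genes past the filter (solid line) and that of abundant genes (dashed line). The 10 members (top) have a median of −0.09 and run from −0.63 to 0.29, and rescaling to TPM would move the points right by about 0.18, which turns the medians of the members and of 8 network lists to above 0. In TPM the median of all genes past the filter is 0.178 and that of abundant genes −0.0115.

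The genes with levels most like those of Hspa1b, by Euclidean distance over log2(FPKM + 0.1) in the 2 libraries, were Guca1a (distance 0.028, 4.91 and 3.22 FPKM), 3110001I22Rik (0.032) and Rnf208 (0.033). For the sum of Hspa1a and Hspa1b they were Ddit4l (0.019, 6.22 and 4.33 FPKM), Pls1 (0.041) and Efemp2 (0.062). With 2 libraries this likeness says only that these genes have like values in both.

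**Figure D5:**
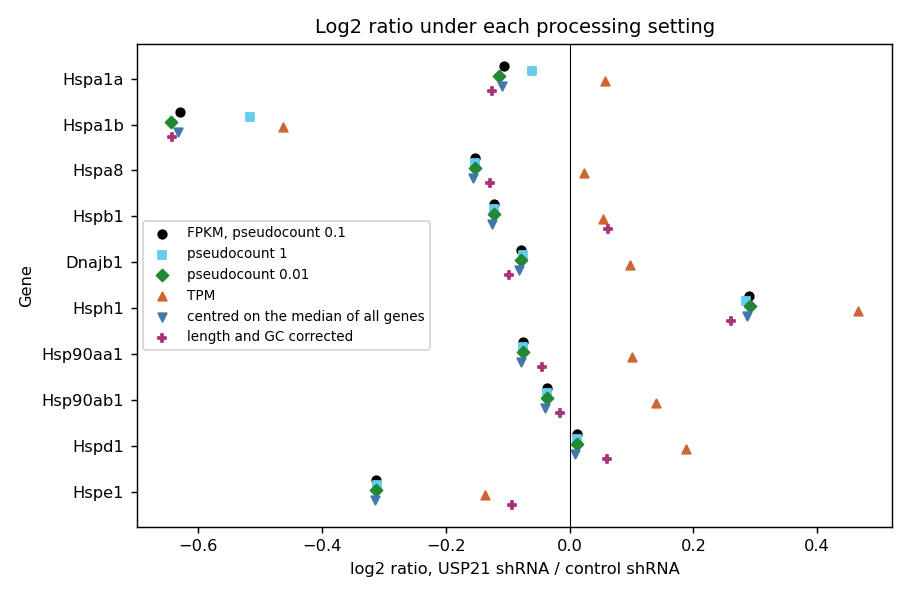
Log2 ratio (USP21 shRNA over control shRNA) of the 10 genes under each processing setting (symbols). Hspa1b stays between −0.64 and −0.46 and Hsph1 between 0.26 and 0.47, while Hspa1a, Hspa8, Hspb1, Dnajb1, Hsp90aa1 and Hsp90ab1 lie above 0 in TPM and Hspb1 also after length and GC correction.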

How the data were processed

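RNA sequencing of E14 mESCs was analysed from 2 libraries, 1 per group by GEO's labels. The values the authors deposited are FPKM, listed once for each symbol in either library. The submitters' processing notes name CASAVA 1.8.2, TopHat2 2.0.14, Cufflinks 2.2.1 and build mm9, with no roles. The gene annotation, the handling of reads with several matches and the number of fragments are not given in the sources used here, so depth is unknown and no interval can be given.

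Log2 ratios were computed with a pseudocount of 0.1, which understates differences of low genes, and a filter of FPKM 1 in at least 1 library (Python 3.11.15, numpy 2.4.6, pandas 2.3.3). A ratio was called at 1.5-fold or 2-fold. Count models and tests were not used, since FPKM values are not counts and each group holds 1 library. Transcript length and GC content came from GENCODE M21 transcripts (GRCm38), matched by symbol, the one with the longest coding sequence for each, and were used for a lowess correction (span 0.3, statsmodels 0.14.6). Shared 31-base words were those of each member's transcript that occurred in any GENCODE transcript of another symbol. Promoter windows came from RefSeq (GRCm38.p6), another build than that of the files, so no file coordinates were used. The log2 ratio and the lowess correction were tested on simulated data with known fold changes, without and with a length trend. The other steps were not tested in this way.

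The genes named were all members, Usp21, Hsf1, Hsf2, Hsbp1, the highest and lowest gene of each list, markers, and the 3 genes nearest to Hspa1b and to the Hspa1a and Hspa1b sum. Cryab, Hsf4, Hsf5, Hspd1-ps3 and Gm15459 were added after their values were seen. The members and lists were chosen with earlier results of these data known. Alternatives were pseudocounts of 1 and 0.01, TPM, median centring, the length and GC correction, a filter of FPKM 5 or none, and Hspa1a and Hspa1b taken as 1 gene.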

Additional observations from a re-analysis of the deposited data

How the results depend on the processing

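Differences rest on 1 library per group, so replicate error is unknown and no library could be left out. No paired analysis was possible because each group holds 1 library. The sum of Hspa1a and Hspa1b had a log2 ratio of −0.52 and was −0.35 in TPM, below 0 under every alternative run. The members' median was −0.09 and moved to 0.077 in TPM, where 6 members changed sign. In TPM the median of all genes past the filter was 0.178, and that of abundant genes −0.0115. The members' median kept its sign with both other pseudocounts, median centring, the length and GC correction, and Hspa1a and Hspa1b taken as 1 gene. The 1 member at least 1.5-fold lower, Hspa1b, became 0 with a pseudocount of 1 (log2 ratio −0.52), in TPM (log2 ratio −0.46) and with Hspa1a and Hspa1b taken as 1 gene, and 0 members were 1.5-fold higher under any alternative run. For single members, the other lists and all genes, 134 alternative values lay within the tolerance (0.1 on the log2 scale, 1.5 times for shares) and 41 moved further, most of them in TPM. The share of all genes at least 1.5-fold lower was 6.46%, and 4.62% with a filter of FPKM 5. Low FPKM and shared reads limit what can be said of Hspa1a and Hspa1b, their sum included. Shared reads also limit Hspa8, Hsp90aa1, Hspb1, Hspd1 and Hspe1.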
